A study of Mus musculus with 6 samples.

Results

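JAK kinases, STAT transcription factors and SOCS inhibitors were examined in RNA-seq libraries of mouse sciatic nerve (left side, distal part), taken 24 h after surgery from females and males. The 10 genes were Jak1, Jak2, Tyk2, Stat3, Stat5a, Stat5b, Socs1, Socs2, Socs3 and Cish, out of 54309 genes in the files. They were taken by gene symbol, and the estimated reads and TPM of their 66 transcripts, out of 140789, were summed per gene and library. All 10 passed the filter on low counts.

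The study compared the nerve transcriptomes of the sexes. Each sex had 3 libraries, each pooled from 2 C57BL/6 mice (C57BL6/J) of 6 to 8 weeks, so a library is a mean of 2 animals. The females and the males were labelled with the same treatment. The labels disagree on that treatment: a field and the study's design name axotomy, the cutting of the nerve, while the written procedure has the nerve exposed and not cut. Whether these nerves were cut therefore cannot be told from the labels, and unoperated nerves were not analysed here. No level below can be read as a response to the surgery.

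Cytokine and growth hormone receptors have no kinase of their own and rely on JAK kinases bound to their inner part. A JAK that is brought together with its partner phosphorylates the receptor and the STAT docked there, and the paired STATs move to the nucleus and start transcription. The genes of Socs3 and Cish are among those that STATs switch on, and their proteins shut the receptor down, which makes a feedback loop. In peripheral nerve the loop is known for the gp130 cytokines, such as IL-6, LIF and CNTF, which act through STAT3.

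The libraries held 55272138 to 77610593 estimated reads, so 3 reads, the limit that a count of 0 allows, came to at most 0.0543 CPM, for counting error only. All 55 listed markers of 10 cell types passed the filter on low counts. Summed over the 8 Schwann cell markers, the female libraries held 10720 to 16710 CPM and the male libraries 21900 to 29760 CPM. For the 5 fibroblast markers the sums were 5106 to 5888 CPM in females and 7309 to 8850 CPM in males, and for the 5 macrophage markers 2884 to 3579 CPM and 2472 to 3574 CPM. Skeletal muscle markers, 9 genes, summed to 1596 CPM in female 2 and 857 CPM in male 1, and to at most 24.1 CPM in the other libraries. The part of these cell types in the values below was not tested. In bulk tissue, fewer cells of a type and less RNA per cell cannot be told apart.

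By TPM, which is per transcript length and so can be set between genes, Socs3, Stat3 and Jak1 led the group in every library. Their means over the 6 libraries were 167, 127 and 105 TPM, and they stood at the 95.5th, 93.9th and 92.4th percentile of the 19129 genes that passed the filter. Jak2 (34.7 TPM), Stat5a (25.8 TPM), Stat5b (19.8 TPM), Tyk2 (16.1 TPM) and Socs2 (12.1 TPM) followed. Cish (4.06 TPM) and Socs1 (2.84 TPM) were lowest, at the 37.9th and 33.6th percentile. Each gene stood above the next one in 6 of 6 libraries, except that Cish was above Socs1 in 5 of 6. Over all libraries the ranges of Socs3 and Stat3, of Jak2 and Stat5a, of Stat5b and Tyk2, of Tyk2 and Socs2, and of Cish and Socs1 overlapped, although within a library their order held as given. The ranges of Stat3 and Jak1, of Jak1 and Jak2, of Stat5a and Stat5b, and of Socs2 and Cish did not overlap.

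**Figure D1:**
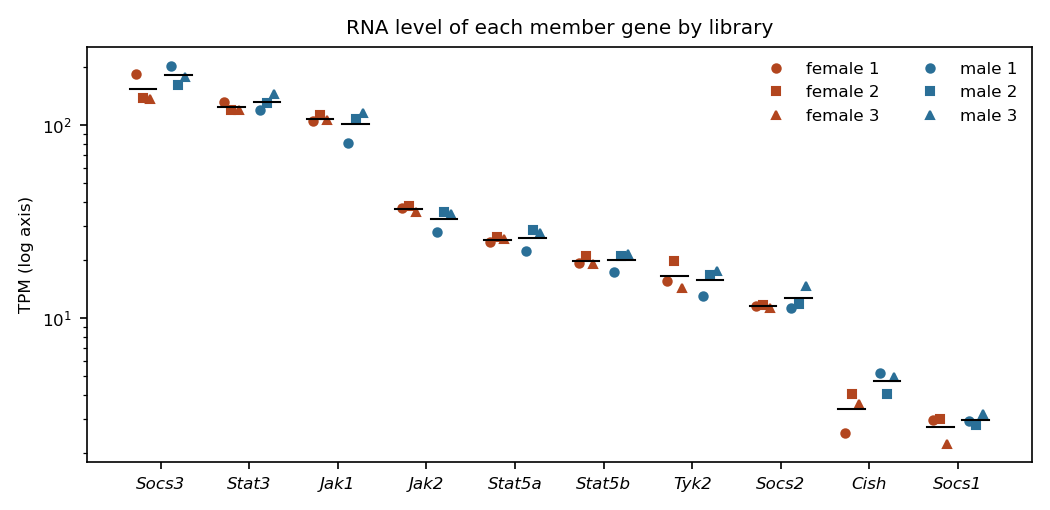
RNA level in TPM (log axis) of the 10 genes, ordered by their mean, with 3 female libraries (red, left) and 3 male libraries (blue, right) per gene and a bar at the mean of each sex. Socs3, Stat3 and Jak1 lie near or above 100 TPM and Cish and Socs1 below 6 TPM in every library, a much wider span than any distance between the sexes.

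Female and male nerves were compared gene by gene on TMM-scaled CPM, with log2 fold changes as female minus male. In edgeR's quasi-likelihood test with Benjamini-Hochberg adjustment over all genes, 0 of the 10 genes passed an adjusted p of 0.05, where 0.11% of all tested genes did. At an unadjusted p under 0.05 there were 2, Jak2 and Cish, against 14.5% of all genes. DESeq2 also called 0 of the 10, where it called 5.28% of all genes it gave an adjusted p, and 1 of the 10 had an unadjusted p under 0.05 there, against 14.6% of all genes. The log2 fold change was above 0 for 4 genes and below 0 for 6, with a median of -0.08, beside a median of 0.02 over all tested genes. The largest was that of Cish, -0.49.

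**Figure D2:**
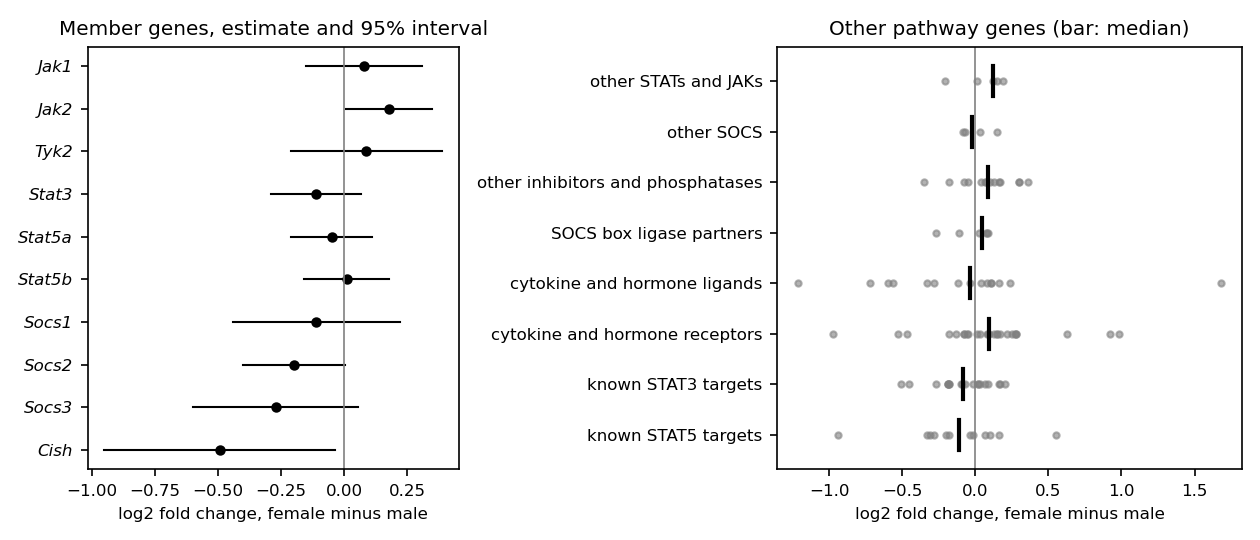
Left, log2 fold change (female minus male) of each of the 10 genes with its 95% interval. Right, the same estimate for each tested gene of 8 lists of the pathway (points), with a bar at the list's median. The intervals of Jak2 and Cish leave out 0, with unadjusted p-values of 0.0428 and 0.0377, and no point of either panel passed the adjusted threshold in edgeR's quasi-likelihood test.

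Among the kinases, Jak1 was the most abundant. Jak1 (ENSMUSG00000028530.15, chromosome 4) encodes a kinase that many cytokine receptors use, among them the gp130 and interferon receptors. Its CPM were 322, 347 and 327 in the 3 female libraries and 272, 329 and 340 in the 3 male libraries. Male 1 was lowest and the sexes overlapped. This gave a log2 fold change of 0.08 (95% interval -0.15 to 0.31), or -0.01 without male 1.

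Jak2 (ENSMUSG00000024789.14, chromosome 19) encodes the kinase of the growth hormone, erythropoietin and leptin receptors. It had 107, 103 and 96.8 CPM in female libraries and 85.7, 96.5 and 88.6 CPM in male libraries. All female libraries were thus above all male ones, though female 3 and male 2 nearly touched. Jak2 was the 1 gene of the 10 placed so, and 9.64% of all tested genes were. Its log2 fold change was 0.18 (SE 0.075, 95% interval 0.01 to 0.35), and edgeR's quasi-likelihood test gave an adjusted p of 0.326. In TPM 0 of the 10 genes had all female libraries above all male ones (8.63% of all genes did), and for Jak2 the female values were 37.1, 37.9 and 35.3 and the male values 28.0, 35.4 and 34.6. In male 1 the TPM of Jak2 stood low against its CPM (log2 ratio -0.14, centred over libraries), as did that of the median gene (-0.10).

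Tyk2 (ENSMUSG00000032175.12, chromosome 9) encodes the partner of JAK1 at interferon receptors and of JAK2 at the IL-12 receptor. Tyk2 measured 50.9, 64.5 and 46.4 CPM in females and 45.9, 53.8 and 52.6 CPM in males. Female 2 was the highest library, and the sexes overlapped, with a log2 fold change of 0.09 (95% interval -0.21 to 0.39). Without female 2 it was -0.07, so the sign rested on that library.

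Of the summed TPM of the 4 JAK genes, Jak1 held 61.3% to 64.0%, Jak2 19.1% to 21.7% and Tyk2 8.61% to 10.7% over the 6 libraries. Jak3, which encodes the kinase of the common gamma chain receptors of blood cells, held the remaining 6.27% to 7.98%. The order of the 4 kinases was thus the same in every library.

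Stat3 (ENSMUSG00000004040.17, chromosome 11) encodes the factor that gp130 receptors activate. Its CPM were 352, 325 and 318 in the female libraries and 361, 346 and 366 in the male libraries. Female 1 fell within the male range. The means were 331 ± 18.2 CPM in females and 358 ± 10.2 CPM in males (n = 3 each, ± SD), which gave a log2 fold change of -0.11 (95% interval -0.29 to 0.07).

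Stat3 makes several proteins by splicing, and the letters that set their coding sequences apart are shown. STAT3 alpha is the full-length form. A known variant of it lacks a single serine shortly before the tyrosine that JAKs phosphorylate. STAT3 beta loses its C-terminal activation domain. In the GENCODE M21 models of GRCm38, Stat3-203 encodes 770 codons, Stat3-201 769 and Stat3-202 722. These transcripts are 4516, 2927 and 6042 bases long, so they differ outside the coding sequence too. The coding sequences of Stat3-203 and Stat3-201 differ in 3 bases at chr11:100893074-100893076 (minus strand), which are in capitals here within 24 bases on each side:
Stat3-203: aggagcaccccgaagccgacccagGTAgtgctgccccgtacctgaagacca
Stat3-201: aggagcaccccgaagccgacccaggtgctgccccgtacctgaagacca

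Stat3-202 lacks 50 bases at chr11:100889541-100889590 (minus strand), in capitals here, so that the frame shifts and the protein ends early:
Stat3-203: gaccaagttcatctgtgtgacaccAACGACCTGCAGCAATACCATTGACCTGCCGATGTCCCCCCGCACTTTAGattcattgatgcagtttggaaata
Stat3-202: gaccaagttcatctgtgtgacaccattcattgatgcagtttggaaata

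Most Stat3 RNA was assigned to the alpha transcript. Stat3-203 made up 78.4%, 79.2% and 76.5% of the TPM of Stat3 in females and 83.7%, 79.2% and 78.4% in males. By reads, which weigh long transcripts more, its share was 92.4% to 93.5% in females and 93.0% to 94.5% in males. Stat3-201, without the serine codon, held 3.00%, 2.72% and 3.55% of the TPM in females and 2.51%, 3.45% and 3.15% in males. The beta transcript Stat3-202 held 1.26%, 1.19% and 1.11% in females and 1.10%, 1.09% and 1.27% in males. Both minor shares overlapped between the sexes. Most of what was left was assigned to 9 short transcripts with retained introns, together 17.1%, 14.2% and 17.2% of the TPM in females and 12.5%, 15.4% and 15.7% in males, but at most 2.60% of the reads. For Stat3-203 and Stat3-201 the assignment rests on few letters. Of the 31-base words of each transcript, 61 of Stat3-203, 25 of Stat3-201 and 1741 of Stat3-202 occur in no other Stat3 transcript.

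Stat5a and Stat5b encode factors that growth hormone, prolactin and IL-2 family receptors activate, and they are neighbours of Stat3 on chromosome 11. The order along the chromosome is Ghdc, Stat5b, Stat5a, Stat3 and Cavin1. Over 2343 aligned coding bases Stat5a-202 and Stat5b-201 were 90.7% identical, and 23.7% and 16.6% of their 31-base words also occur in another gene. The split of reads between this pair is therefore an estimate.

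Stat5a (ENSMUSG00000004043.15) had 56.0, 56.7 and 53.5 CPM in female and 54.4, 61.4 and 56.1 CPM in male libraries. With a coefficient of variation of 3.07% in females and 6.37% in males, Stat5a varied little. Stat5b (ENSMUSG00000020919.12) had 68.6, 74.5 and 67.1 CPM in female and 64.6, 72.6 and 71.4 CPM in male libraries. The sexes overlapped for both, and the log2 fold changes were -0.05 (95% interval -0.21 to 0.11) for Stat5a and 0.01 (-0.16 to 0.18) for Stat5b.

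Of the 7 STAT genes, Stat3 held the largest share of TPM in every library, at 33.4%, 24.7% and 31.3% in females and 34.1%, 31.7% and 31.5% in males. Its low share in female 2 stood beside the highest share of Stat2 (21.5%), a factor of interferon signalling, in the same library. Stat3 itself was at 120 TPM there, within the range of the other libraries. Stat5a held 5.40% to 7.00% and Stat5b 4.32% to 5.12%.

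**Figure D3:**
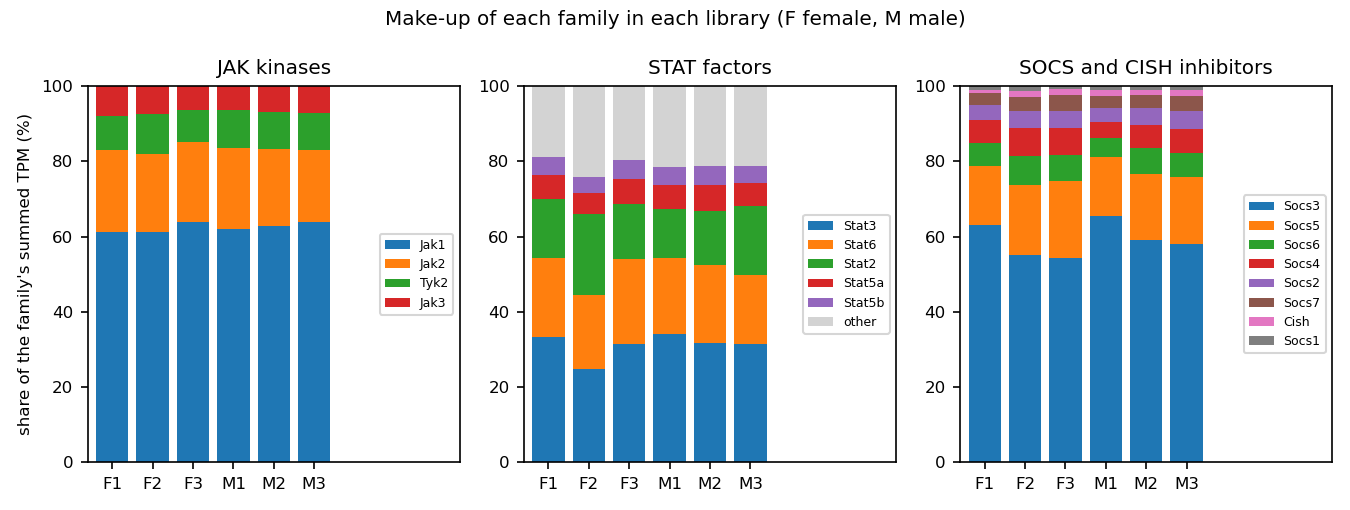
Share (%) of the summed TPM of the JAK, STAT and SOCS families held by each gene in each library (F, female, left; M, male, right). Jak1 holds over 60% of its family and Socs3 over 50% of its own in every library, and the smaller Stat3 share of female 2 goes with a larger share of Stat2. STAT genes not named in the legend are summed as other.

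Of the inhibitors, Socs3 was the most abundant by far. Socs3 (ENSMUSG00000053113.4, chromosome 11) encodes the inhibitor of gp130, leptin and G-CSF receptors. It had 299, 228 and 225 CPM in females and 347, 271 and 289 CPM in males. Library 1 was the highest in both sexes, and female 1 lay above male 2 and male 3. The means were 251 ± 41.7 CPM in females and 303 ± 39.6 CPM in males (SD, n = 3 each). The log2 fold change was -0.27 (SE 0.14, 95% interval -0.60 to 0.05), and edgeR's quasi-likelihood test gave an adjusted p of 0.425. It was -0.42 without female 1, -0.16 without male 1 and -0.10 without the muscle-bearing libraries female 2 and male 1, and none of these passed the adjusted threshold.

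Cish (ENSMUSG00000032578.8, chromosome 9) encodes CIS, an inhibitor that STAT5 induces. In females it had 5.56, 9.20 and 8.28 CPM, from 410, 633 and 633 reads, and in males 12.0, 9.16 and 11.2 CPM, from 904, 553 and 620 reads. Female 2 and male 2 were level in CPM, female 1 was low and male 1 was high. In TPM, with 2.55, 4.02 and 3.61 in females and 5.21, 4.04 and 4.96 in males, all female libraries were below all male ones, as were those of 10.9% of all genes. The log2 fold change was -0.49 (SE 0.20, 95% interval -0.95 to -0.04), with an adjusted p of 0.312 in edgeR's quasi-likelihood test. Without female 1 it was -0.31.

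Socs2 (ENSMUSG00000020027.19, chromosome 10) encodes an inhibitor of growth hormone signalling. It had 12.2, 12.3 and 10.98 CPM in females and 13.9, 13.0 and 14.0 CPM in males. All female libraries were below all male ones, and Socs2 was the 1 gene of the 10 placed so in CPM, beside 11.5% of all genes. In TPM the sexes overlapped, with 11.5, 11.7 and 11.3 in females and 11.3, 11.9 and 14.7 in males. Socs2 had a log2 fold change of -0.20 (SE 0.088, 95% interval -0.40 to 0.0028), with an adjusted p of 0.350 in edgeR's quasi-likelihood test.

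Socs1 (ENSMUSG00000038037.6, chromosome 16) encodes an inhibitor that binds JAKs directly and restrains interferon signalling. With 285 to 387 reads per library it had 5.09, 5.10 and 3.83 CPM in females and 5.15, 4.84 and 5.16 CPM in males. Female 3 was low and the other libraries were level. Socs1 had a log2 fold change of -0.11 (95% interval -0.44 to 0.22), and 0.01 without female 3.

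Of the summed TPM of the 8 SOCS family genes, Socs3 held 63.0%, 55.2% and 54.2% in females and 65.5%, 59.0% and 58.0% in males. Socs5 came next with 15.6% to 20.5% over all libraries. Socs2 held 3.66% to 4.80%, Cish 0.87% to 1.69% and Socs1 0.89% to 1.20%. The family was thus mostly Socs3 in each of the 6 libraries. Tyk2 shares 31-base words with 1700084C06Rik, Socs2 with Gm9847 and Gm8000, and Cish with Gm17041 and Gm17040, which held 0 to 21 estimated reads per library.

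STAT dimers bind a palindrome of the form TTCNNNGAA, which is its own reverse complement, and the promoters of Cish and Socs3 are textbook STAT targets. RefSeq promoter windows of GRCm38.p6, 250 bases before to 50 after each start, held the motif in 8.3% of 32851 windows. For the 10 genes there were 11 windows of 9 genes, Socs2 having no entry, and the motif occurred in those of Cish and Socs3. The Cish window held 2 motifs, at 1 and 12 bases after the start and 2 bases apart, and 0.457% of all windows held at least 2. The Socs3 window held 1, at 154 bases before the start. The stretches are shown with the motifs in capitals, for chr9:107296579-107296688 (plus strand) and chr11:117969447-117969556 (minus strand):
Cish: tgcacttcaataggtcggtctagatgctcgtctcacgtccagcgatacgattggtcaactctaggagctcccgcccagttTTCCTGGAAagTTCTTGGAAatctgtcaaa
Socs3: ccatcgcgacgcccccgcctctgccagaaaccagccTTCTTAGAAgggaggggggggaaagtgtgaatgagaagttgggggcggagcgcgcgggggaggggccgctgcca

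These matches describe the letters of the windows, and no binding was measured. The genes that carried them stood far apart in level, with Socs3 at 167 TPM and Cish at 4.06 TPM on average.

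Transcript use was then compared as the share of each transcript in the TPM of its gene. In limma's test on log-ratios of shares, 0 of the 21 transcripts of these genes that could be tested passed an adjusted p of 0.05, where 0.0323% of 37174 transcripts did. At an unadjusted p under 0.05 there were also 0, against 5.02% of all, and the smallest p was 0.132 (adjusted 0.921), for Socs2-202. With transcripts of at least 1% of their gene included, 46 were tested, and the smallest adjusted p in limma's test was 0.934. Among these, 2 had all female shares above all male ones (6.26% of all transcripts) and 2 had all female shares below (4.73%).

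The largest of these shifts was in Socs3, where Socs3-201 made up 96.8%, 97.4% and 96.4% of the TPM in females and 98.5%, 98.0% and 99.0% in males. Socs3-202, a processed transcript without a listed coding sequence, was the other form, with 3.25%, 2.62% and 3.56% in females and 1.46%, 1.97% and 1.01% in males. It rested on 47.9 to 86.1 estimated reads per female library and 20.3 to 44.9 per male library. The log2 ratio was 1.14 (SE 0.32), with an adjusted p of 0.934 in limma's test. In Socs2 the transcript Socs2-209, annotated for nonsense-mediated decay, held 3.13%, 3.38% and 3.49% in females and 6.11%, 4.86% and 4.99% in males (log2 ratio -0.63, SE 0.21). Jak1-207, a processed transcript, held 2.90%, 2.21% and 2.88% in females and 1.69%, 1.53% and 1.78% in males. These minor transcripts were chosen after their values were seen.

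Jak2 showed an on-or-off pattern that did not follow sex. Jak2-202 made up 100% of the TPM in female 1 and male 1, against 74.8% in female 2, 75.9% in female 3, 74.7% in male 2 and 70.5% in male 3. Jak2-204 was listed at 0 in female 1 and male 1, and had 1602 and 1598 estimated reads in female 2 and 3 and 1285 and 1217 in male 2 and 3. In GENCODE M21 both transcripts hold the same 3396 coding bases, and none of the 1035 exon bases found in only 1 of them is coding. Jak2-204 has 0 31-base words that no other Jak2 transcript holds, so no word by itself marks a read as coming from it. Why it was at 0 in female 1 and male 1 was not tested.

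Pairs with the same coding sequence also shared the RNA of Stat5b and Socs1. Stat5b-201 held 70.4%, 78.7% and 72.4% of the TPM in females and 82.2%, 71.8% and 73.7% in males, and Stat5b-202, which starts from another first exon, most of the rest. Socs1-201 held 86.9%, 78.2% and 62.7% in females and 66.2%, 56.0% and 83.7% in males, and Socs1-202 all of the rest. The Socs1 shares ranged widely within each sex, on 48.2 to 134 estimated reads of Socs1-202 per library.

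Each of the 10 genes had the same leading transcript in every library. Jak1-201 held 93.1% to 93.4% of the TPM in females and 93.5% to 94.8% in males. Tyk2-203, which encodes 1184 codons, held 80.0% to 83.4% in females and 79.0% to 88.6% in males. The short Tyk2-205, of 159 codons, held 6.24% to 6.86% in females and 3.87% to 9.19% in males. As for Jak2-204, Tyk2-203 has 0 sequence words of the length used above that no other transcript of its gene holds. The same is true of Tyk2-201 and Tyk2-206, which encode 1207 codons each. How Tyk2 reads were split among these transcripts is therefore an estimate. Stat5a-202, with 793 codons, held 57.1% to 69.2% in females and 61.4% to 64.0% in males.

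Short or incomplete forms took larger parts of the rest. Stat5a-206, of 125 codons, held 19.1% to 25.0% of the TPM in females and 15.9% to 22.9% in males, from 77.8 to 141 estimated reads. Socs2-201 led Socs2 with 54.9% to 64.0% in females and 56.7% to 65.4% in males, and its coding sequence of 198 codons is shared with Socs2-202, Socs2-213 and Socs2-214. In Cish the coding Cish-201 held 65.3%, 61.7% and 59.3% in females and 68.0%, 56.7% and 56.6% in males. The processed transcript Cish-202 held 22.5%, 30.7% and 30.0% in females and 22.7%, 29.6% and 36.6% in males, so Cish was the gene of the 10 with the largest noncoding part.

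**Figure D4:**
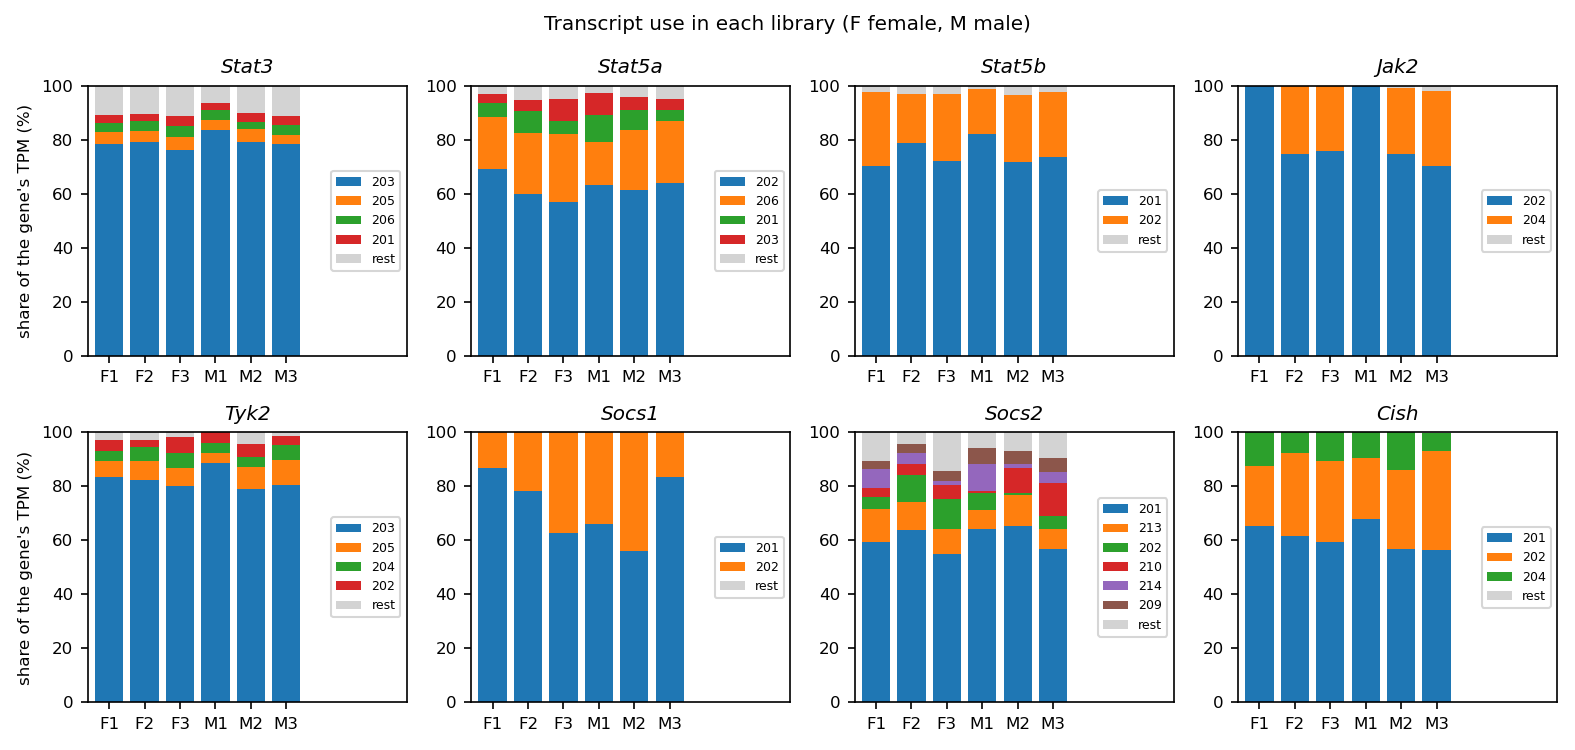
Share (%) of each gene's TPM held by its transcripts in each library (F, female, left; M, male, right), with the transcript number in the legend. Transcripts with a mean share of under 3% are summed as rest. Jak2-204 is at 0 in female 1 and male 1 and between 24.2% and 27.5% elsewhere, and Socs1-201 ranges from 56.0% to 86.9%.

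The rest of the pathway was described by 8 lists with 99 genes, of which 95 passed the filter on low counts. In edgeR's quasi-likelihood test 0 of them passed the adjusted threshold, and 17 had an unadjusted p under 0.05, beside 14.5% of all genes. DESeq2 called 4 of them, beside 5.28% of all genes it gave an adjusted p: Cntf, Cntfr and Il11ra1 (lower in female) and Il7r (higher in female). Il7r, the IL-7 receptor gene, was chosen after its values were seen.

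Among the 15 ligand genes that passed (Ifng, Csf2 and Epo did not), 7 log2 fold changes were above 0 and 8 below, with a median of -0.04. It was 0.04 without male 1, -0.14 without female 3 and 0.0014 with scaling to library size only. Cntf, a survival factor that Schwann cells make and hold, had 93.2, 94.7 and 162 CPM in females and 298, 257 and 256 CPM in males. All female libraries were below all male ones. In this list 2 of the 15 genes were placed so, beside 11.5% of all genes. Cntf had a log2 fold change of -1.21 (SE 0.23), with an adjusted p of 0.130 in edgeR's quasi-likelihood test and 2.56e-06 in DESeq2. The summed Schwann cell markers were likewise lower in every female library, at 10720 to 16710 CPM against 21900 to 29760 CPM in males, and their part in the Cntf value was not tested. Ctf1, the cardiotrophin gene, was low, at 0.977 to 1.13 CPM in females and 1.29 to 1.80 CPM in males.

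All 26 receptor genes passed the filter, 17 with a log2 fold change above 0 and 9 below, and a median of 0.09, which was 0.004 without female 2. Il6st, which encodes gp130, was the most abundant of them by TPM. It was at 1112, 1013 and 1095 CPM in females and 1191, 1042 and 1170 CPM in males, and the sexes overlapped. Cntfr, the gene of the CNTF-binding receptor, had 10.8, 12.8 and 15.8 CPM in females and 19.1, 17.8 and 20.1 CPM in males (log2 fold change -0.53, SE 0.14). Il11ra1, the IL-11 receptor gene, which has near-identical copies in the mouse, so that its level is an estimate, had 92.3, 113 and 125 CPM in females and 153, 145 and 158 CPM in males (-0.47, SE 0.11). Both were lower in every female library than in any male one. Of the 26 receptor genes 3 were placed so, beside 11.5% of all genes. The adjusted p-values of Cntfr and Il11ra1 were 0.171 and 0.159 in edgeR's quasi-likelihood test, and 0.0191 and 0.00954 in DESeq2. Csf3r, the G-CSF receptor gene of neutrophils, had 335, 267 and 415 CPM in females and 244, 257 and 157 CPM in males (0.63, SE 0.23). Csf3r is itself on the list of 6 neutrophil markers, and the other 5 summed to 538 to 1149 CPM in females and 421 to 935 CPM in males. Their part in the Csf3r value was not tested.

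The other members of the families were described in the same way. Of the 5 other STAT and JAK genes, 4 were above 0 and 1 below, with a median log2 fold change of 0.12. This median was -0.19 without female 2 and -0.24 without female 2 and male 1, so its sign rested on female 2. Stat6, the IL-4 factor, was at 0.12 (SE 0.088). Stat4, the IL-12 factor, had 5.06, 5.49 and 5.06 CPM in females and 5.67, 6.48 and 5.92 CPM in males (-0.21, SE 0.11). All its female libraries were below all male ones. In this list 1 of the 5 genes was placed so, beside 11.5% of all genes. Of Socs4, Socs5, Socs6 and Socs7, 2 were above 0 and 2 below, with a median of -0.02 that was 0.02 with scaling to library size only, and values from -0.08 for Socs7 to 0.15 for Socs4, with 0.03 for Socs6 and -0.07 for Socs5.

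Of 14 other inhibitors and phosphatases 10 were above 0 and 4 below, with a median of 0.09 (0.15 without male 2). Ptprc, which encodes the leukocyte phosphatase CD45, had 352, 367 and 333 CPM in females and 227, 327 and 302 CPM in males. Ndufa13 (GRIM-19), a respiratory chain subunit gene that also encodes a STAT3 binder, had 73.4, 71.8 and 87.5 CPM in females and 111, 94.7 and 91.7 CPM in males (-0.35, SE 0.11). Neither gene overlapped between the sexes. In this list 3 of 14 genes had all female libraries above (9.64% of all genes) and 1 below (11.5%). Neither Ptprc nor Ndufa13 passed, with adjusted p-values of 0.363 and 0.211 in edgeR's quasi-likelihood test. The 6 genes listed as ubiquitin ligase partners of SOCS proteins, 4 above 0 and 2 below, had a median of 0.05. It was -0.03 without female 1 and -0.0015 without male 3. Rnf7, a RING subunit gene, was at -0.27 (SE 0.10), Elob, the elongin B gene, at -0.11 (SE 0.10) and Cul2, a cullin gene, at 0.08 (SE 0.059).

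Known STAT3 targets, 20 genes, had 8 log2 fold changes above 0 and 12 below, with a median of -0.08, which was 0.02 without female 3. Timp1, the metalloproteinase inhibitor gene, was the most abundant by TPM, and had 421, 327 and 382 CPM in females and 525, 432 and 404 CPM in males. Icam1, an adhesion molecule gene, had 76.6, 76.6 and 71.3 CPM in females and 61.5, 68.2 and 65.8 CPM in males (0.20, SE 0.068). Ccnd1, the cyclin D1 gene, which is also a listed STAT5 target, had 137, 131 and 133 CPM in females and 152, 146 and 155 CPM in males (-0.18, SE 0.064). Their adjusted p-values in edgeR's quasi-likelihood test were 0.398, 0.256 and 0.269. Mcl1, a survival gene on both lists, was at 0.16 (SE 0.099).

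Of 13 known STAT5 targets 12 passed the filter, Onecut1 being left out, and 4 were above 0 and 8 below, with a median of -0.11. It was 0.044 without male 1, -0.032 without female 2 and male 1, and -0.18 without male 2, so its sign changed with the libraries left out. Pim1, a kinase gene, was at -0.01 (SE 0.11). Tnfsf11, the RANK ligand gene, was low, at 1.56, 0.814 and 1.09 CPM in females and 1.92, 1.74 and 3.02 CPM in males, with an adjusted p of 0.234 in edgeR's quasi-likelihood test. The STAT3 and the STAT5 targets thus held genes on both sides of 0, and no member of either list passed the threshold.

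Over the 6 libraries, the genes whose log2 CPM followed Socs3 most closely were Gpr180 (Pearson r = 0.996), Isg20l2 (0.992) and Pcdhgc4 (0.990), and 49 genes had an r above 0.95. For Cish they were Cd55 and Csad (0.998 each) and Map4 (0.996), with 71 genes above 0.95. These values describe likeness over 6 libraries of both sexes that differ in depth, and carry no test. Pcdhgc4, a protocadherin gene, showed the Socs3 order with a wider span, at 18.0, 3.17 and 2.67 CPM in females and 28.7, 7.82 and 10.9 CPM in males. Cd55, which encodes a complement regulator, had 29.0, 43.4 and 41.1 CPM in females and 53.7, 43.1 and 51.7 CPM in males, with the low female 1 and high male 1 of Cish.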

How the data were processed

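Reads were trimmed and quantified with tools named in the submitters' processing notes (Trimmomatic 0.39, Salmon 1.5.2 and MultiQC 1.9). Per the file headers, the authors deposited an estimated count and a TPM value for each of 140789 transcripts, neither changed further. The sources used here do not give the genome build, the annotation release or the use of strand. Names and lengths of all 66 transcripts of these genes matched GENCODE M21, which gave sequences and coding lengths.

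Estimated counts were summed per gene and rounded. edgeR 4.0.16 (filterByExpr, TMM, robust quasi-likelihood, no covariate; R 4.3.3) compared female with male over 19129 genes in all 6 libraries, at a Benjamini-Hochberg adjusted p of 0.05. CPM are TMM-scaled (factors 0.968 to 1.02). Shares were tested with limma 3.58.1 as the log2 ratio of a transcript's TPM to the rest of its gene, with 0.05 TPM added to each, for mean shares of 5% to 95%. DESeq2 1.42.0 and the settings given under the dependence on the processing were alternatives. Both tests were tested on simulated data.

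The named genes are the 10 genes, of each list the 2 of highest mean TPM and the 2 of smallest p, and the 3 genes most like Socs3 and the 3 most like Cish. Stat2, Jak3 and Il7r lie outside it and were chosen after their values were seen. Some genes that this rule covers are not reported here. The genes and lists were chosen with earlier results of these data known. Each library was its own pool of animals, per the labels' protocols. Every pair of libraries differed by more than sampling noise (chi-square per degree of freedom of at least 26.3).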

Additional observations from a re-analysis of the deposited data

How the results depend on the processing

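Under all 16 alternatives tried 0 of the 10 genes passed the adjusted threshold, and 148 of 160 recomputed log2 fold changes kept their sign. The signs of Cish (-0.65 to -0.31), Jak2 (0.14 to 0.23), Socs2 (-0.24 to -0.11), Socs3 (-0.42 to -0.10) and Stat3 (-0.16 to -0.07) held in every alternative. The others reversed as follows, and the cause was not tested. Stat5b was at -0.013 with the length offset, -0.001 and -0.00081 with limma on log2(TPM + 1) and log2(TPM + 0.1), and -0.086 without female 2 and male 1. Leaving out 1 library in turn gave -0.041 (without female 2) to 0.043 for Stat5b. It gave -0.008 (without male 1) to 0.14 for Jak1, -0.067 (without female 2) to 0.18 for Tyk2, -0.082 to 0.0023 (without male 2) for Stat5a and -0.18 to 0.012 (without female 3) for Socs1. Without both female 2 and male 1 the value was -0.045 for Jak1 and -0.13 for Tyk2.

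Of the 10 genes 2 did not overlap between the sexes in TMM-scaled CPM, Jak2 (higher in females) and Socs2 (lower in females). Among all tested genes, 9.64% were without overlap and higher in females, and 11.5% were without overlap and lower. With scaling to library size only, the same 2 genes did not overlap, and with DESeq2 size factors 1 of the 10 did not (Socs2). The share of all genes is not given for either of these settings. In TPM 1 of the 10 genes did not overlap (Cish, lower in females). In TPM the shares of all tested genes were 8.63% higher and 10.9% lower in females. Over all genes, 21 passed in the edgeR test, against 191 with no filter, 871 in DESeq2 and 10 with limma on log2(TPM + 1). Leaving out female 1, 2 or 3 gave 7, 10 and 205, and leaving out male 1, 2 or 3 gave 13, 4 and 6. For transcript shares, 12 transcripts passed, against 36 with 0.01 TPM added, 7 with 0.5 TPM, 30 by estimated read share, 19 at a minimum share of 1% and 0 without female 2 and male 1. Leaving out 1 library gave 7 to 36. Of 128 recomputed list medians 10 moved, and those that a single library or scaling turned are given beside their lists.

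The labels state no pairing, and same-numbered libraries did not deviate together over all genes (correlations -0.141, -0.256 and 0.0134). With 3 libraries per sex these values cannot decide whether the replicate numbers pair the samples. Jak2-204 was at 0 in library 1 of both sexes, and Socs3 was highest there. With the number as a replicate block, 3 genes passed for level and 0 transcripts for share. Socs3 then had a log2 fold change of -0.28 (SE 0.078), with an adjusted p of 0.244 in edgeR's quasi-likelihood test.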
